A study of Mus musculus with 12 samples.

Results

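The tumors described here are the controls of a study that gave doxorubicin and a PD-1-blocking antibody, alone or together, to mice with PyMT mammary tumors. They were chosen by the treatment label IgG1 alone and make up 3 of the 12 sequenced tumors, which fall into 4 treatment groups. The mice were females on a C57BL/6 background that carry the middle T oncogene of mouse polyomavirus (PyMT) behind the mouse mammary tumor virus (MMTV) promoter, and such mice develop tumors in each mammary gland. The controls were given IgG1, an isotype antibody, into the peritoneum at 20 mg/kg on day 0 and at 10 mg/kg on days 6, 12 and 18, beginning when the first tumor measured 0.6 cm across. The sample labels instead give weekly treatment over 5 weeks. Doxorubicin and the PD-1 antibody were not given to these mice. Each library holds RNA of 1 whole tumor, so that tumor cells, remaining gland, stroma, blood and immune cells were read together, and the labels do not say whether the 3 tumors come from separate animals.

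The mammary duct has an inner layer of luminal cells, some of which make milk, and an outer layer of contractile basal cells, both set in a stroma of fibroblasts, vessels, fat and immune cells. The MMTV promoter is most active in luminal cells under hormones of pregnancy. Middle T sits at the cell membrane, has no enzyme activity of its own and binds Src-family kinases, protein phosphatase 2A, Shc and phosphoinositide 3-kinase, which couples it to growth signaling.

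Expression was given as log2(TPM + 1), where TPM (transcripts per 1000000) is a share of the RNA molecules corrected for gene length, and was turned back into TPM here. Of 21960 listed genes, 12400 (56.5%) reached 1 TPM in every tumor, which is the level used below for a detected gene, and the median gene had a mean of 5.13 TPM. A value of 0 in every tumor was given for 5875 genes, and 2633 genes were listed at 0 in 1 or 2 tumors. The read depth is unknown, so no counting error can be given. Values are listed below in the order of tumors 1, 2 and 3, and an SD is over these 3 tumors. Over all listed genes TPM added up to 609418, 689937 and 708191, so levels were compared between genes within a tumor first. Orders of the tumors and even levels below are those of unscaled TPM. Scaling by median-of-ratios size factors, a setting chosen after the data were seen, was tried on 54 orders stated for single genes. Of these, 50 held, and the 4 that turned are named below. Most genes named below as standing apart in 1 tumor are not among the 54. A 0 is reported only as listed at 0, and Rps12, a ribosomal protein gene that every cell uses, shows why and was listed at 104, 12.6 and 0 TPM.

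The label of a female mammary tumor was checked against markers. The keratins Krt8 and Krt18 of simple epithelium lay at 606, 278 and 377 TPM and 707, 557 and 635 TPM. Epcam, an adhesion molecule of epithelial cells, lay at 938, 846 and 954 TPM. Of 8 genes from the male-specific region of the Y chromosome, 7 were at 0 in every tumor and Kdm5d, a histone demethylase, reached at most 0.89 TPM. Xist and Tsix, the RNAs of X inactivation, are not among the listed genes. Krt8, Krt18 and Epcam were thus present at high levels in all 3 tumors. They mark epithelium but not the mammary gland alone, and further luminal genes and milk genes are given below.

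The transcriptome was spread over many genes. The 10 most abundant genes held 6.21% ± 0.789 of the summed TPM (SD, n = 3), the 100 most abundant 19.5% ± 1.26 and the 1000 most abundant 50.5% ± 1.20. Tumor 1 was the most concentrated, with 50% of its sum in 846 genes, against 977 in tumor 2 and 1000 in tumor 3. A mean of at least 1000 TPM was reached by 38 genes, of at least 100 TPM by 1333 and of at least 10 TPM by 9137. Without a list added later, the 59 gene lists described below, which overlap, together held 1209 genes and 25.9% of the sum. They were arranged by class, and lists of cell processes held 14.1% of the sum, metabolic lists 4.40%, secretory lists 3.82%, immune lists 3.09%, signaling lists 1.49%, epithelial lists 1.11% and stromal lists 1.07%. The immune lists include Calr, Pdia3, Lcn2, Ltf, Xbp1 and Kit, which are not restricted to immune cells, and the metabolic lists include the secreted Trf and Cp.

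**Figure D1:**
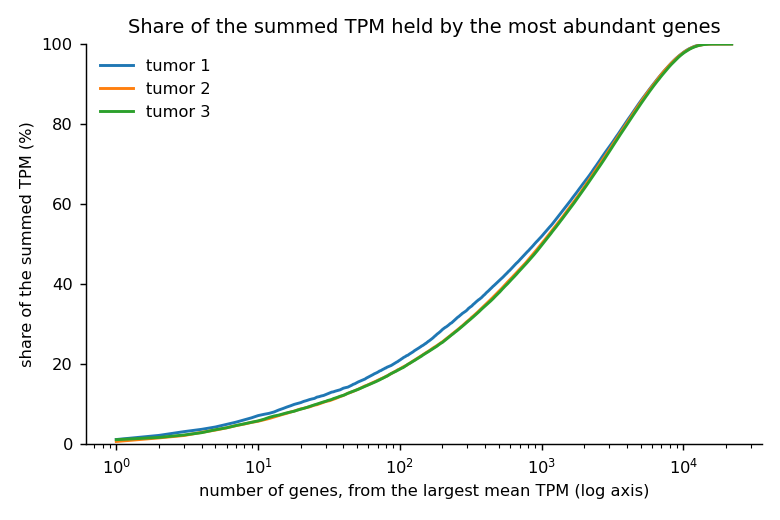
Share of the summed TPM (%, vertical axis) held by the most abundant genes, whose number runs along the horizontal log axis from the largest mean TPM. Each line is 1 tumor; the line of tumor 1 lies above the others, with 21.0% of its sum in the 100 most abundant genes against 18.8% and 18.7% in tumors 2 and 3.

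Among the 10 most abundant genes were products that the mammary gland secretes, genes of translation and chaperones. Csn3, the kappa casein that keeps milk micelles in solution, had the largest mean at 6439 ± 1758 TPM (SD, n = 3) and lay at 6987, 4472 and 7858 TPM. Rpl13a, a protein of the large ribosomal subunit, followed at 6283, 6224 and 3916 TPM. It was the most abundant gene of tumor 2, and it took the first place from Csn3 when tumor 3 was left out. Igfbp5, which binds insulin-like growth factors, lay at 5706, 4118 and 4309.7 TPM. Trf, the iron carrier transferrin, lay at 3539, 5438 and 4158 TPM. Cp, the copper-carrying ferroxidase ceruloplasmin, lay at 3537, 3919.7 and 5181 TPM. Eef1a1, which brings aminoacyl-tRNA to the ribosome, lay at 3966, 3882 and 3456 TPM, and Hspa8, a constitutive chaperone of the cytosol, at 3428, 3845 and 3995 TPM. Calr, the calcium-binding chaperone calreticulin of the endoplasmic reticulum, reached 3543, 2676 and 3151 TPM. Lcn2, a lipocalin that withholds iron-binding siderophores from bacteria, reached 3062, 2881 and 2716 TPM. Wfdc18, a small secreted protein with a whey acidic protein domain, reached 3328, 1902 and 2351 TPM. Csn3, Igfbp5, Trf, Cp, Lcn2 and Wfdc18, that is 6 of these 10 genes, thus code for secreted proteins.

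Places 11 to 30 were held mainly by chaperones, actins and ribosomal proteins. The endoplasmic reticulum chaperones Hspa5 and Hsp90b1 lay at 1957, 2498 and 2899 TPM and 1564, 2309.9 and 3394 TPM. Pdia3, a disulfide isomerase that serves the folding of glycoproteins, lay at 1229.8, 1415 and 1519.8 TPM, and its partner Canx, the membrane-bound lectin calnexin, at 1078, 1424 and 1061 TPM. Hsp90ab1, the constitutive cytosolic HSP90, lay at 2319.9, 1823 and 1884 TPM. The cytoplasmic actins Actg1 and Actb, whose reads are hard to assign because their coding sequences are near-identical, reached 2127, 2594 and 2421 TPM and 2256, 2020.3 and 2141 TPM. Among ribosomal proteins, Rpl26 lay at 2911, 2574 and 1559 TPM. Rplp1, a protein of the ribosomal stalk, lay at 2055, 1675 and 1451 TPM and Rpsa, which is also known as a laminin receptor, at 1349, 1836 and 1605 TPM. These 3 ribosomal protein genes were lower in tumor 3 than in tumor 2.

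Others of the 30 were genes of membranes, defense and the nucleus. Serinc3, a membrane protein named for the incorporation of serine into lipids, lay at 1325, 1814 and 1978 TPM. Ly6e, an anchored surface protein induced by interferon, lay at 1861, 1056 and 1427 TPM, and Cd81, a tetraspanin, at 1063, 1561 and 1409 TPM. Ltf, the iron-binding milk protein lactoferrin, reached 1433, 897 and 1758 TPM. B2m, the light chain of MHC class I, was the most uneven of the 30 at 1951, 674 and 1379.6 TPM, which is 2.89-fold from the lowest to the highest tumor. Thrap3, which acts in transcription and splicing, lay at 799, 1663 and 1550.1 TPM, and Hnrnpa2b1, an RNA-binding protein of the nucleus, at 787, 1438 and 1531 TPM. Ddx5, an RNA helicase, lay at 704, 1418 and 1282 TPM and Ptma, the nuclear protein prothymosin alpha, at 1250.1, 1175 and 951 TPM. Of the 30 genes, 21 were among the 30 most abundant of every single tumor and 17 lay within 1.5-fold across the tumors. No neighbors in the order of means were separated, since in 0 of 29 adjacent pairs did all values of one gene lie above all values of the next. The exact places are therefore not resolved by 3 tumors.

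**Figure D2:**
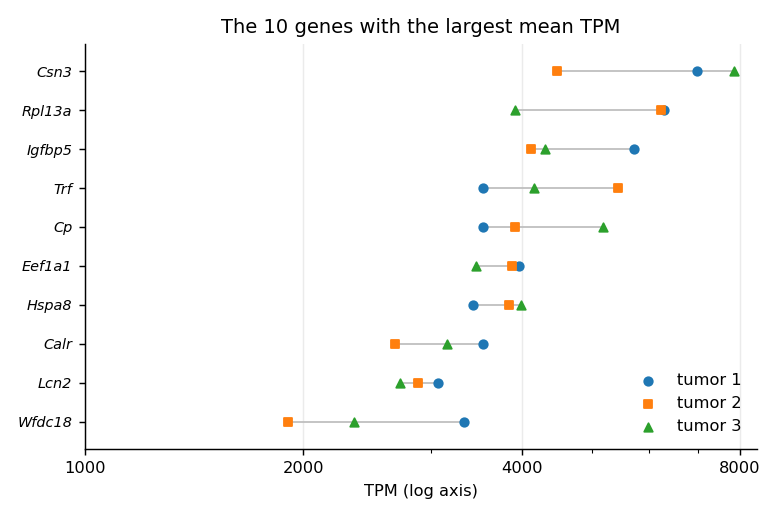
TPM (horizontal log axis) of the 10 genes with the largest mean, from the first at the top. Each point is 1 tumor, marked by color and shape, and the line joins the lowest and the highest tumor. Csn3 spans 4472 to 7858 TPM and Wfdc18 1902 to 3328 TPM, while Lcn2 stays between 2716 and 3062 TPM.

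Luminal epithelial genes were all detected, 25 of 25, with a median of 148 TPM and sums of 6827, 6163 and 7349 TPM. Each list below is given in this way, as members detected in every tumor, the median of their mean TPM and the summed TPM of each tumor, beside 56.5% detected and a median of 5.13 TPM over all listed genes. Cd24a, a glycoprotein of luminal cells, lay at 783, 778 and 799 TPM and was among the most even genes of the tumors. Ehf, an epithelial ETS factor, reached 434, 722 and 666 TPM and Krt19, a further simple keratin, 847, 347 and 601 TPM. Cdh1, the E-cadherin of epithelial junctions, lay at 402, 360.4 and 399 TPM. Elf5, the ETS factor of the milk-producing lineage, lay at 111, 140.3 and 156 TPM and Gata3, which specifies luminal cells, at 101, 177 and 165 TPM. Luminal markers were thus carried by 7 of 7 defining genes.

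Basal and myoepithelial genes were detected in 16 of 18 cases but at a median of only 14.6 TPM, with sums of 768, 431 and 719 TPM. Itgb4, an integrin of the contact with the basement membrane that luminal cells can also express, was the most abundant at 146, 168 and 160.3 TPM. Acta2 and Cnn1, actin and calponin of contractile cells, lay at 212, 76.8 and 178 TPM and 108, 25.2 and 64.4 TPM. Myh11, a smooth muscle myosin, lay at 46.4, 24.3 and 52.6 TPM and Lgr6, a receptor of R-spondins, at 53.5, 34.7 and 56.2 TPM. The basal keratins Krt14 and Krt5 lay at 64.7, 22.1 and 34.1 TPM and 27.7, 7.58 and 25.7 TPM, and Trp63, the transcription factor p63 of basal cells, at 12.2, 6.10 and 20.7 TPM. Tumor 2 had the lowest level of Acta2, Cnn1, Myh11, Krt14, Krt5 and Trp63. On the log2 scale, the median luminal gene exceeded the median detected basal gene by 2.45, 3.97 and 2.70 (mean 3.04, SD 0.81). The ratio of Krt8 to Krt5, chosen after the values were seen, was 21.9, 36.7 and 14.7. In bulk tissue, fewer cells of a type and less RNA per cell cannot be told apart.

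**Figure D3:**
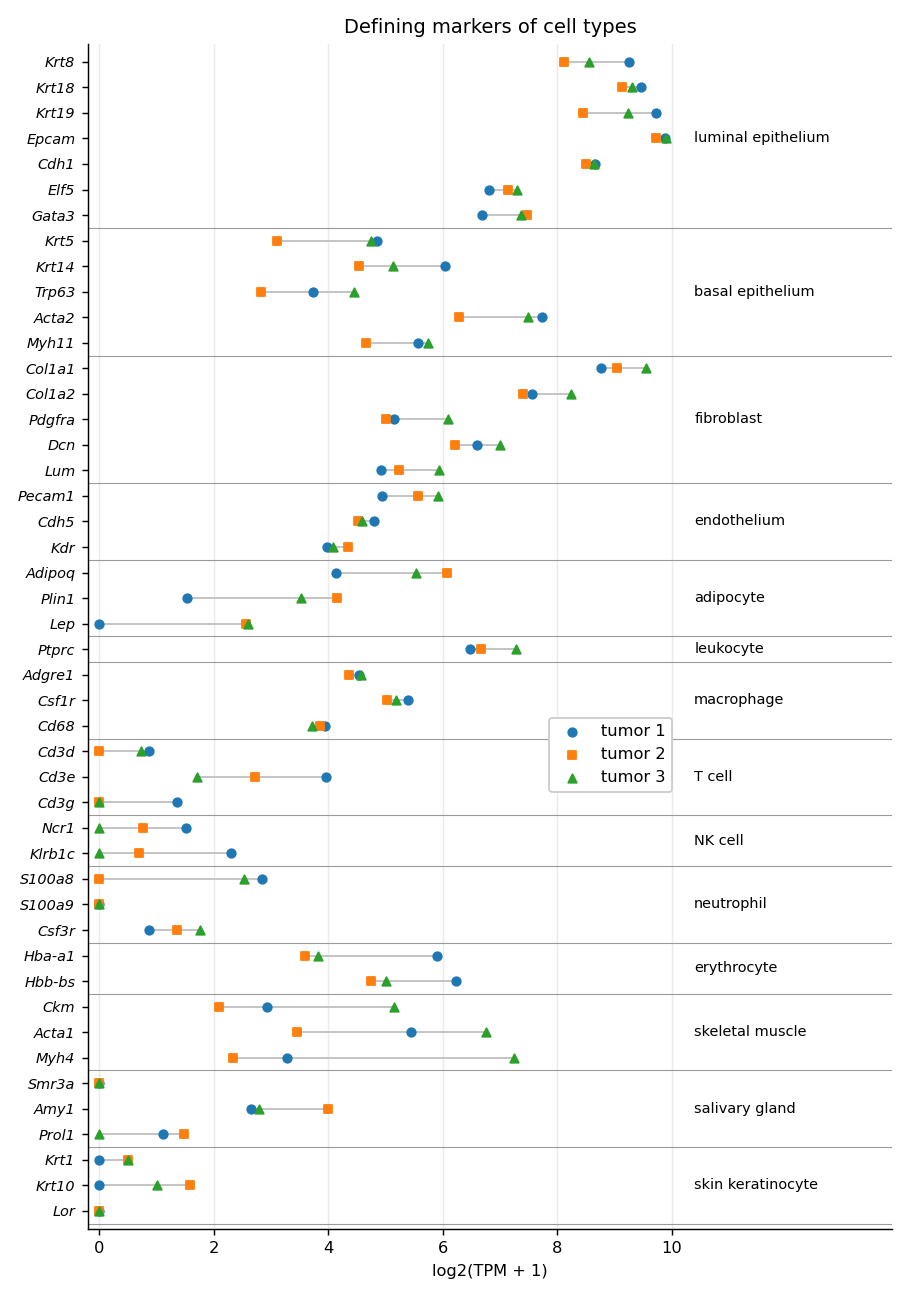
Defining markers of cell types as log2(TPM + 1) (horizontal axis), grouped by cell type. Each point is 1 tumor and the line joins the lowest and the highest. Among luminal markers, Epcam lies at 846 to 954 TPM before the log step, while S100a9, Smr3a and Lor were listed at 0 in every tumor.

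Milk genes were led by a single member. The list had 10 of 16 genes detected, a median of 13.1 TPM and sums of 8199.7, 5408 and 9260.4 TPM, of which Csn3 gave 84.5%. Mfge8, a protein of milk fat globules, lay at 505, 416 and 453 TPM. Lalba, the alpha-lactalbumin that turns galactosyltransferase to lactose synthesis, lay at 343, 236 and 375 TPM, and Csn1s1, an alpha casein, at 109, 49.7 and 183 TPM. Plin2, which coats lipid droplets, lay at 99.4, 68.7 and 124 TPM. Csn2, the beta casein that is a main protein of mouse milk, lay at 7.38, 1.63 and 36.9 TPM, Csn1s2a at 6.17, 2.30 and 24.0 TPM and Csn1s2b at 0, 0.49 and 0 TPM. Wap, the whey acidic protein of late pregnancy and lactation, lay at 2.68, 6.10 and 0 TPM, and Glycam1, a mucin-like milk protein, at 6.95, 0 and 14.6 TPM. Btn1a1 and Xdh, which act in the secretion of milk fat, lay at 61.5, 47.6 and 77.7 TPM and 69.7, 102 and 101 TPM. Lpo, a milk peroxidase, lay at 0, 1.96 and 6.07 TPM, Lao1, an amino acid oxidase of milk, at 1.69, 1.34 and 4.86 TPM, Cel, a lipase, at 0, 2.44 and 0.51 TPM and Fabp3, a fatty acid carrier, at 0, 0 and 1.34 TPM.

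Relations among the milk genes were looked for after their values had been seen. Csn3, Lalba, Csn1s1 and Csn2 all were highest in tumor 3, next in tumor 1 and lowest in tumor 2, whereas Wap was highest in tumor 2 and listed at 0 in tumor 3. With size factors, Csn3 came to 7912, 4242 and 7120 TPM and Lalba to 389, 224 and 340 TPM, so that both were highest in tumor 1. Csn3 exceeded Lalba by a steady 20.4, 19.0 and 21.0-fold. It exceeded Csn1s1 by 63.9, 89.9 and 42.9-fold, and Csn2 by 947, 2743 and 213-fold. Casein levels were thus unequal, and the less abundant caseins differed most between tumors. Csn1s1, Csn2 and Csn3 lie on chromosome 5, Lalba on chromosome 15 and Wap on chromosome 11.

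The sequences before these genes are shown because STAT5, the factor that acts downstream of the prolactin receptor on milk genes, is known to bind the letters TTCNNNGAA. The windows are of 300 bases, from 250 before to 50 after the start of the gene, taken from RefSeq on GRCm38.p6, and were searched on both strands for TTCNNNGAA, which reads the same on both, and for TATAAA, the core of the TATA box. Genes, motifs and windows were chosen after expression values were seen, and Cp also after its match was known. Capitals mark a match, and all sequences read in the direction of the gene. Of 32851 windows, 2726 (8.30%) held TTCNNNGAA and 4473 (13.6%) held TATAAA. In the milk list, 12 of 16 genes had a window, with TTCNNNGAA in 4 (Csn1s1, Csn1s2a, Csn2 and Glycam1) and TATAAA in 0. The genes without an entry are Csn1s2b, Csn3, Btn1a1 and Xdh. Csn1s1 (chr5:87665958-87666257, + strand) and Csn2 (chr5:87699376-87699675, - strand) are shown with matches from base 151 and base 158. Lalba (chr15:98482634-98482933, - strand) and Wap (chr11:6638600-6638899, - strand) are shown as milk genes that held neither motif.
Csn1s1: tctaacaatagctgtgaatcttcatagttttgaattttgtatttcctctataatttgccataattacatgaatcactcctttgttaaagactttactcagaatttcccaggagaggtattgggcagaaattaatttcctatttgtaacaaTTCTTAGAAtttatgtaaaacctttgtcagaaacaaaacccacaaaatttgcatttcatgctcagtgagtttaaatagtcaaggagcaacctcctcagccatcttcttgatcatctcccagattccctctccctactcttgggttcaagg
Csn2: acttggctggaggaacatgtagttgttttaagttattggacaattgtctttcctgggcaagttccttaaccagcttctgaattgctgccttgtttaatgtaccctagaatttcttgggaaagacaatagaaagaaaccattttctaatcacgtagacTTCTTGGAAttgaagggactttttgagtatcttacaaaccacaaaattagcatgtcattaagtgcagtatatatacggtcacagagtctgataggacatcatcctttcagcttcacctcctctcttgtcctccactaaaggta
Lalba: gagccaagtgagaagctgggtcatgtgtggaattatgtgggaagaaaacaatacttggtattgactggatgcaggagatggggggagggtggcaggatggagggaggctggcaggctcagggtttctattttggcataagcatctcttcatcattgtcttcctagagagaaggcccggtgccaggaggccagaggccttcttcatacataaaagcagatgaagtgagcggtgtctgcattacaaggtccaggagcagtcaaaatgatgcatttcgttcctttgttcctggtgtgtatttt
Wap: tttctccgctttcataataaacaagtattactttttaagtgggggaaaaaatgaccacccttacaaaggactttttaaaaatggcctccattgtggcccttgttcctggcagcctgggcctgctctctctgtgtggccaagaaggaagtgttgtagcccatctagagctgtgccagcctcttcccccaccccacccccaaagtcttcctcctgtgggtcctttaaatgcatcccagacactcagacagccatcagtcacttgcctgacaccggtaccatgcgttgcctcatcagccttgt
A match describes letters only and says nothing of binding.

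The list of secreted defense and acute phase proteins had 18 of 22 genes detected, a median of 102 TPM and sums of 17819.6, 17128 and 18438 TPM. Of the 22, 11 were among the 1000 most abundant genes, against 4.55% of all listed genes. Trf, Cp, Lcn2, Wfdc18 and Ltf, described above, led it. Next came Spp1, the matrix phosphoprotein osteopontin, at 1222, 525 and 628 TPM and Chil1, a chitinase-like protein, at 547, 450.3 and 449.6 TPM. Dmbt1, a mucosal glycoprotein that binds bacteria, was the most uneven member above 0 at 16.2, 219.9 and 143 TPM. Bpifa2, a salivary protein, was listed at 0 in every tumor. Spp1, Chil1, Dmbt1 and Bpifa2 fall outside the 5 most abundant members and are named after their values were seen. The list sum differed by 1.08-fold between the lowest and the highest tumor. It exceeded the milk sum in every tumor, but Trf, Cp, Lcn2 and Ltf also belong to other lists. Without these 4 members, a setting chosen after the data were seen, it came to 6249, 3993 and 4625 TPM and lay below the milk sum in every tumor.

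Of the 22 genes, 17 had a promoter window. TTCNNNGAA was found in 1 (Pigr, the transporter of polymeric immunoglobulins) and TATAAA in 4 (Cp, Reg3g, Spp1 and Wfdc18). Both are counts of genes, which have 20 windows here, while the shares of 8.30% and 13.6% above are of windows. The genes without an entry are Trf, Clu, Hp, Orm1 and Dmbt1. The most abundant genes with an entry, Cp and Lcn2, are shown to compare with the milk genes. Cp has 2 entries, and the one that holds TATAAA (chr3:19956999-19957298, + strand) has overlapping matches on both strands from bases 224 and 226. Lcn2 (chr2:32387690-32387989, - strand) held neither motif. As above, capitals mark matches.
Cp: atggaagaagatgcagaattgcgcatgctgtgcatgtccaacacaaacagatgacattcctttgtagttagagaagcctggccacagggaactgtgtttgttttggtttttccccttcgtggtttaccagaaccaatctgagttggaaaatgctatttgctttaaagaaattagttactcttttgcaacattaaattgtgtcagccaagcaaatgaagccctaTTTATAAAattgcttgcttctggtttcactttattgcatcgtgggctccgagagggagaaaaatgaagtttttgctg
Lcn2: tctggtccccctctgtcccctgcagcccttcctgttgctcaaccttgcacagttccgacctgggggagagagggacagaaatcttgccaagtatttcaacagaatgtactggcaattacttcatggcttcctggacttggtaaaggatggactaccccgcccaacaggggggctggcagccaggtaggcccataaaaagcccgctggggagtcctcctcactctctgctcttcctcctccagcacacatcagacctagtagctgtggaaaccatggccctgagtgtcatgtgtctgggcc

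**Figure D4:**
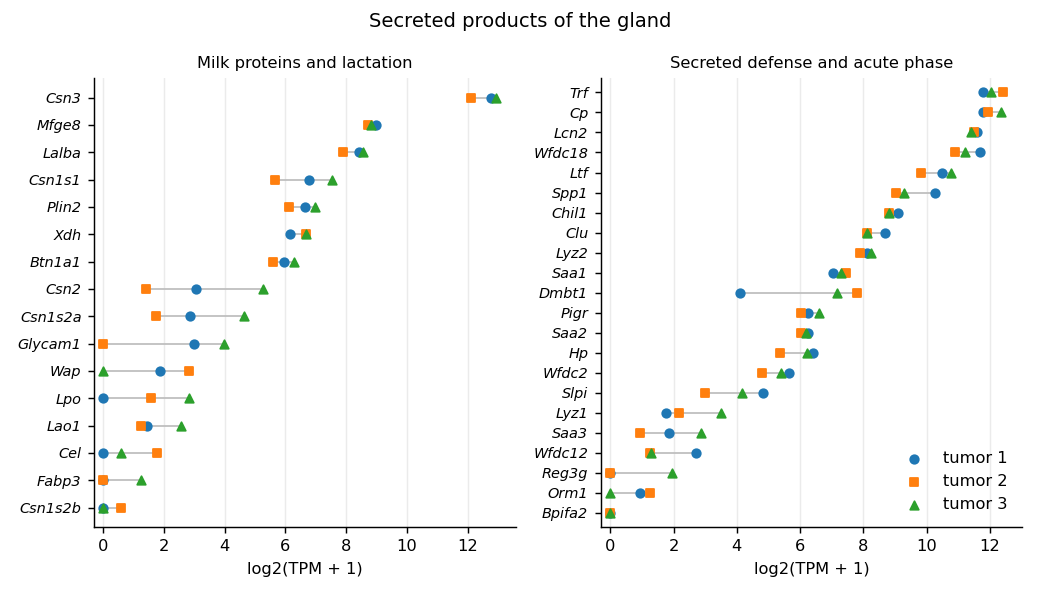
Milk genes (left) and secreted defense genes (right) as log2(TPM + 1) (horizontal axes), ordered by mean TPM. Each point is 1 tumor and the line joins the lowest and the highest. Csn3 stands alone above the other milk genes at 4472 to 7858 TPM, while Trf, Cp, Lcn2 and Wfdc18 lie close together, the lowest value among them being 1902 TPM for Wfdc18.

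Metal handling was carried by the same secreted carriers. Its list had 12 of 12 genes detected, a median of 86.1 TPM and sums of 8369, 10312 and 10246 TPM, of which Trf gave 45.4%. Fth1 and Ftl1, the heavy and light chains of ferritin that store iron, lay at 589, 329.5 and 253 TPM and 282, 214 and 197 TPM. Tfrc, the receptor that takes up transferrin, lay at 96.5, 167 and 162 TPM. The ratio of Trf to Tfrc, chosen after the values were seen, was 36.7, 32.5 and 25.6.

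Fibroblast and matrix genes were detected in 20 of 20 cases, with a median of 64.4 TPM and sums of 3766, 3324 and 5334 TPM. Postn, the matrix protein periostin, lay at 437, 605 and 1008 TPM. Sparc, which binds collagen, lay at 602, 524 and 915 TPM, and Fn1, fibronectin, at 546, 315 and 467 TPM. Col1a1 and Col3a1, chains of fibrillar collagens, reached 432, 527 and 745 TPM and 405, 303 and 492 TPM. The defining markers Dcn and Lum, small proteoglycans, lay at 95.3, 72.9 and 127 TPM and 29.4, 36.4 and 60.3 TPM, and Pdgfra, a receptor of platelet-derived growth factor, at 34.5, 31.0 and 66.9 TPM. Tumor 3 had the highest value of Postn, Sparc, Col1a1, Col3a1, Dcn, Lum and Pdgfra, but with size factors Col3a1 was highest in tumor 1 (459, 288 and 446 TPM). The median luminal gene exceeded the median fibroblast gene by 1.02, 1.72 and 1.11 on the log2 scale (mean 1.29, SD 0.38).

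Collagens as a family had 33 of 44 genes detected, a median of 20.8 TPM and sums of 3116, 2589.9 and 3654 TPM. Col4a1 of basement membranes lay at 468, 257 and 535 TPM, Col11a1, known from cartilage and from reactive stroma, at 332, 182 and 198 TPM and Col1a2, the partner of Col1a1, at 188, 168 and 299.7 TPM. The ratio of Col1a1 to Col1a2, chosen after the values were seen, was 2.30, 3.14 and 2.49. Matrix proteases and their inhibitors had 17 of 22 genes detected, a median of 11.3 TPM and sums of 975, 679 and 901 TPM. They were led by the inhibitor Timp3 at 376, 176 and 344 TPM and the membrane-bound protease Mmp14 at 164, 187 and 181 TPM. The inhibitor Timp2 lay at 103, 84.4 and 51.5 TPM, the gelatinase Mmp2 at 77.1, 78.0 and 72.8 TPM and the stromelysin Mmp3 at 40.0, 27.6 and 75.7 TPM.

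Vessels and fat gave smaller sums. Endothelial genes were detected in 14 of 14 cases, with a median of 15.9 TPM and sums of 194, 188 and 296 TPM. Pecam1, an adhesion molecule of endothelial junctions, lay at 29.5, 46.2 and 59.2 TPM, the vascular cadherin Cdh5 at 26.9, 21.8 and 23.1 TPM and the VEGF receptor Kdr at 14.7, 19.4 and 15.9 TPM. Egfl7, a secreted factor of endothelium, lay at 13.5, 10.4 and 56.5 TPM, Plvap of fenestrae at 18.7, 19.3 and 25.2 TPM and the VEGF receptor Flt1 at 24.6, 13.9 and 21.2 TPM. Lymphatic genes were detected in 2 of 6 cases, with a median of 2.38 TPM and sums of 96.2, 57.9 and 112 TPM. Podoplanin (Pdpn), which other cells also express, made up most of that sum at 87.3, 46.6 and 77.4 TPM, while the chemokine Ccl21a lay at 0.8, 5.01 and 22.1 TPM, Prox1, the lymphatic transcription factor, at 0.83, 2.52 and 3.04 TPM and Lyve1, a hyaluronan receptor, at 4.54, 0.69 and 0.71 TPM. Pericyte and smooth muscle genes were detected in 9 of 10 cases, with a median of 27.8 TPM and sums of 538, 291 and 496 TPM. Apart from Acta2, they were led by Tagln, an actin-binding protein, at 112, 52.9 and 71.0 TPM and Mcam, an adhesion molecule, at 71.6, 64.0 and 64.9 TPM. Acta2 and Tagln are shared with myoepithelial cells and myofibroblasts.

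Adipocyte genes were uneven. The list had 10 of 15 genes detected, a median of 14.4 TPM and sums of 264, 511 and 455 TPM. Cfd, the fat-derived protease adipsin, lay at 63.2, 143 and 124 TPM and Adipoq, the hormone adiponectin, at 16.5, 66.7 and 45.4 TPM. Plin1 of the lipid droplet lay at 1.87, 16.8 and 10.5 TPM, and Lep, the hormone leptin, at 0, 4.88 and 5.05 TPM. Adipor2, a receptor of adiponectin, lay at 66.3, 71.3 and 82.5 TPM, the lipase Pnpla2 at 83.7, 56.4 and 58.1 TPM and the lipid carrier Fabp4 at 16.0, 39.4 and 33.6 TPM. Of the 9 members with a mean of at least 10 TPM, 5 stood at least 2-fold lower in tumor 1 than in both other tumors, against 7.41% of all genes at that level. Adipoq, Plin1 and Lep were all lowest in tumor 1, and the amount of fat tissue in each sample was not tested.

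Skeletal muscle genes differed most of all cell type lists between tumors. They were detected in 10 of 15 cases, with a median of 13.3 TPM and sums of 211, 55.1 and 747 TPM, a 13.6-fold range. The mean sum of 338 TPM fell to 133 TPM without tumor 3. Myh4, a fast myosin heavy chain, lay at 8.69, 4.02 and 151 TPM. Acta1, skeletal actin, lay at 42.4, 9.91 and 107 TPM, and Ckm, muscle creatine kinase, at 6.61, 3.25 and 34.4 TPM. The troponins Tnni2, Tnnt3 and Tnnc2 lay at 38.3, 5.38 and 108 TPM, 30.6, 7.22 and 91.9 TPM and 8.16, 1.55 and 44.9 TPM, and the calcium pump Atp2a1 at 9.75, 5.79 and 57.6 TPM. Tumor 3 was highest and tumor 2 lowest in each of these 7 genes. The part of adjacent muscle in other values of tumor 3 was not tested.

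Other tissues can lie beside the gland. Salivary-type secretory genes were detected in 1 of 9 cases, with a median of 0.617 TPM and sums of 8.26, 20.0 and 11.1 TPM. Amy1, an amylase, lay at 5.24, 15.0 and 5.93 TPM, Smr2 at 0, 3.20 and 3.32 TPM and Prol1 at 1.17, 1.78 and 0 TPM, while Smr3a, Mucl2, Dcpp1 and Dcpp2 were listed at 0 in every tumor. Skin keratinocyte genes were detected in 1 of 10 cases, with a median of 0.168 TPM and sums of 10.6, 18.5 and 26.2 TPM, most of it from Sbsn at 9.44, 15.1 and 24.8 TPM. The keratins Krt1 and Krt10 of differentiated skin lay at 0, 0.41 and 0.42 TPM and 0, 2.01 and 1.00 TPM, and Lor, the loricrin of the cornified envelope, was listed at 0. Schwann cell and nerve genes were detected in 6 of 10 cases, with a median of 4.10 TPM and sums of 144, 104 and 95.1 TPM. Sox10, a factor of the neural crest that mammary epithelium also expresses, led them at 87.2, 52.3 and 40.4 TPM, while the neurofilament genes Nefl and Nefm were listed at 0.

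Blood content was measured through hemoglobin. Erythrocyte genes were detected in 6 of 9 cases, with a median of 17.9 TPM and sums of 284, 90.6 and 113 TPM. The globins Hbb-bs, Hba-a1 and Hba-a2 lay at 74.0, 25.8 and 31.3 TPM, 59.0, 11.0 and 13.1 TPM and 92.0, 6.54 and 7.35 TPM, with the last 2 near-identical in sequence. Sptb, a spectrin, lay at 24.0, 27.5 and 25.4 TPM and Alas2, the first enzyme of heme synthesis in red cells, at 13.1, 16.3 and 24.1 TPM. The membrane protein Slc4a1 was listed at 0. Tumor 1 held the most globin RNA, and the mean sum of 163 TPM fell to 102 TPM without it.

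The median gene shared by leukocytes lay below the median luminal gene. The list of genes shared by leukocytes had 7 of 8 detected, a median of 19.5 TPM and sums of 314, 304 and 373 TPM. Ptprc, the CD45 of all leukocytes, lay at 88.0, 100.4 and 155 TPM. Lcp1, an actin-bundling protein, lay at 91.2, 125 and 109 TPM, Laptm5 of lysosomes at 72.0, 31.9 and 50.6 TPM, Coro1a, a coronin, at 25.1, 26.6 and 33.4 TPM and the tetraspanin Cd53 at 16.1, 6.99 and 9.04 TPM. The median luminal gene exceeded the median detected leukocyte gene by 2.26, 2.66 and 2.27 on the log2 scale (mean 2.40, SD 0.23). The lists hold different genes, so the share of RNA from each cell type was not measured.

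Macrophage genes were detected in 17 of 20 cases, with a median of 19.6 TPM and sums of 2116, 1819 and 1814 TPM. Apoe, a lipid carrier that epithelial and stromal cells can also make, gave 49.8% of the sum and lay at 1060.0, 973 and 828 TPM. The lysosomal protease Ctsd, also not restricted to macrophages, lay at 389.6, 374 and 390.1 TPM. C1qa and C1qb, chains of the first complement component that macrophages make, lay at 127, 109.6 and 124 TPM and 79.4, 59.4 and 61.5 TPM, and Cd14, a coreceptor for lipopolysaccharide, at 157, 88.8 and 111 TPM. The defining markers Csf1r, the receptor for CSF1, Adgre1, the F4/80 antigen, and Cd68 lay at 41.1, 31.5 and 35.2 TPM, 22.2, 19.4 and 22.8 TPM and 14.4, 13.5 and 12.2 TPM. Marco, a scavenger receptor, was listed at 0. All defining markers of macrophages were thus above 10 TPM in every tumor.

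Dendritic cell genes were detected in 6 of 10 cases, with a median of 2.28 TPM and sums of 52.6, 38.2 and 56.2 TPM. The integrin Itgax led them at 21.8, 16.2 and 24.8 TPM, followed by the factors Irf8 at 8.35, 5.27 and 8.58 TPM and Zbtb46 at 6.71, 4.97 and 7.20 TPM and the receptor Clec9a of cross-presenting cells at 6.86, 4.66 and 5.31 TPM. Xcr1, the chemokine receptor of the same cells, lay at 0.88, 0.67 and 0.92 TPM, and Ccr7, which guides cells to lymph nodes, at 0, 0 and 0.53 TPM.

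T cell genes were detected in 5 of 15 cases, with a median of 1.68 TPM and sums of 35.9, 40.5 and 22.1 TPM. Cd3e, Cd3d and Cd3g, chains of the T cell receptor complex, lay at 14.6, 5.56 and 2.27 TPM, 0.83, 0 and 0.65 TPM and 1.56, 0 and 0 TPM. The coreceptors Cd4, Cd8a and Cd8b1 lay at 2.47, 4.87 and 1.33 TPM, 0.88, 1.04 and 1.73 TPM and 1.82, 2.76 and 0.71 TPM, and Foxp3 of regulatory T cells at 0.39, 1.79 and 1.59 TPM. The receptor chain Il2ra lay at 3.72, 2.15 and 6.89 TPM, the adhesion molecule Cd2 at 2.86, 4.50 and 1.72 TPM and the kinase Lck at 1.81, 5.51 and 1.43 TPM. The highest single value among these genes was that of Cd3e in tumor 1. Trac, Trbc2 and Tcrg-C1, genes of T cell receptor chains that the list also held, are not among the listed genes, so their levels are unknown.

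NK and cytotoxic genes were detected in 2 of 13 cases, with a median of 1.44 TPM and sums of 20.5, 30.2 and 15.0 TPM. The NK receptors Klra1, Ncr1 and Klrb1c lay at 3.15, 7.18 and 3.11 TPM, 1.84, 0.7 and 0 TPM and 3.94, 0.61 and 0 TPM, and Klrd1 and Klrk1 at 0, 5.75 and 3.97 TPM and 0.4, 3.52 and 2.28 TPM. Granzymes, proteases that kill target cells, lay at 5.71, 4.34 and 2.24 TPM for Gzmb and 4.77, 0 and 2.50 TPM for Gzma. Prf1, the pore-forming perforin, lay at 0.65, 0 and 0.51 TPM, and Ifng and Eomes were listed at 0 in every tumor. The activation marker Cd69 lay at 0, 0 and 0.83 TPM.

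Some lists were carried by 1 or 2 genes that other cell types can also express. B and plasma cell genes were detected in 3 of 12 cases, with a median of 0.307 TPM and sums of 857, 1063 and 928 TPM, of which Xbp1, a factor of secretory cells, gave 93.3%. The B cell markers Ms4a1 and Cd79a lay at 0, 0.39 and 0 TPM and 0, 0.7 and 0 TPM, and Jchain, which joins immunoglobulin units, at 3.88, 1.47 and 1.52 TPM. The immunoglobulin genes Ighm and Igkc are not among the listed genes, so immunoglobulin RNA of plasma cells was not read through them. Neutrophil genes were detected in 2 of 14 cases, Lcn2 and Ltf, with a median of 0.303 TPM and sums of 4506, 3779.9 and 4484 TPM. Of the defining markers, S100a9 was listed at 0 in every tumor, S100a8 lay at 6.20, 0 and 4.74 TPM and Csf3r, the receptor of the granulocyte growth factor, at 0.83, 1.57 and 2.37 TPM. Ly6g, Camp, Elane and Retnlg, granule or surface genes of neutrophils, were listed at 0. Mast cell genes were detected in 1 of 7 cases, with a median of 0.833 TPM and sums of 426, 478 and 780.1 TPM, of which Kit, a receptor kinase that luminal progenitors also carry, gave 99.1%. The mast cell proteases Cma1, Tpsb2, Mcpt4 and Cpa3 reached at most 3.84 TPM, the value of Cma1 in tumor 1.

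Genes of MHC class I and its peptide loading were detected in 16 of 16 cases, with a median of 115 TPM and sums of 9759, 7307 and 8676 TPM. Beside Calr, Pdia3 and B2m, the heavy chains H2-K1 and H2-D1 lay at 1051, 886 and 813 TPM and 713, 743 and 761 TPM. Without members that other lists hold, such as Calr, the mean sum fell from 8581 to 4001 TPM. B2m was 2-fold or more lower in tumor 2 than in both others. With size factors it came to 2209, 640 and 1250 TPM and was less than 2-fold lower in tumor 2 than in tumor 3. The ratio of H2-K1 to B2m, chosen after the values were seen, was 0.539, 1.31 and 0.589. MHC class II genes were detected in 9 of 10 cases, with a median of 14.9 TPM and sums of 1019.6, 795 and 933 TPM. Cd74, the invariant chain, lay at 373, 253 and 272 TPM and H2-Ab1, H2-Eb1 and H2-Aa at 288, 183 and 270.4 TPM, 161, 172 and 183 TPM and 149.6, 156 and 171 TPM. Ciita, the switch that turns class II genes on, lay at 2.72, 3.56 and 3.69 TPM and H2-DMa, which loads peptides, at 24.4, 10.1 and 14.0 TPM.

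Interferon-stimulated genes were detected in 19 of 19 cases, with a median of 42.2 TPM and sums of 1022, 917 and 1018 TPM. Irf7, which amplifies the interferon response, lay at 214, 169 and 81.5 TPM and was lower in tumor 3. Oasl2, Ifi44 and Ifit1, antiviral effectors, lay at 117, 110.4 and 148 TPM, 50.6, 57.1 and 91.5 TPM and 46.1, 61.0 and 83.0 TPM. A level above 1 TPM in every tumor thus held for the whole list, while Ifng itself was listed at 0.

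Chemokines were detected in 20 of 39 cases, with a median of 2.56 TPM and sums of 578, 285 and 473 TPM. Cxcl16, which is also a scavenger receptor, lay at 92.3, 63.2 and 77.7 TPM, and the membrane-bound Cx3cl1 at 83.9, 25.6 and 49.2 TPM. Ccl8, Ccl9 and Ccl6, attractants of myeloid cells, lay at 52.6, 17.8 and 52.8 TPM, 78.8, 17.9 and 21.7 TPM and 55.8, 5.59 and 40.3 TPM. Cx3cl1, Ccl8, Ccl9 and Ccl6 were lowest in tumor 2. Complement genes were detected in 17 of 19 cases, with a median of 32.5 TPM and sums of 691, 697 and 894 TPM. Cd55, which protects cells from complement, lay at 88.2, 151 and 212 TPM, the central component C3 at 93.4, 52.8 and 66.7 TPM and C4b at 42.2, 90.8 and 66.7 TPM.

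Immune checkpoint genes were detected in 13 of 20 cases, with a median of 8.74 TPM, and their sums of 398, 369 and 382 TPM differed by 1.08-fold. Cd47, a signal that holds back phagocytosis, lay at 78.8, 83.0 and 67.9 TPM and its receptor Sirpa at 55.7, 53.4 and 47.9 TPM. Lgals9, a galectin, lay at 53.9, 35.1 and 50.8 TPM, the poliovirus receptor relative Nectin2 at 49.1, 35.1 and 36.6 TPM and Ido1, which breaks down tryptophan, at 17.2, 37.9 and 42.6 TPM. Cd274, the PD-1 ligand PD-L1, lay at 2.88, 3.01 and 1.70 TPM, and Pdcd1lg2, the other ligand, was listed at 0. Pdcd1, which codes for PD-1, lay at 0, 0.52 and 0 TPM and Ctla4, an inhibitory receptor of T cells, at 0.69, 0 and 0.54 TPM. The ratio of Cd47 to Cd274, chosen after the values were seen, was 27.4, 27.6 and 39.9. PD-1 and its ligands were thus at or below 3.01 TPM in these tumors.

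Cytokines of the IL-12 family, their receptors and their signal carriers were detected in 6 of 16 cases, with a median of 1.38 TPM and sums of 738, 662 and 605 TPM. Most of the sum came from genes used by many receptors, with Stat3 at 306, 285 and 234 TPM, the receptor chain Il6st at 223, 116 and 112 TPM and the kinases Jak1 and Jak2 at 59.5, 83.7 and 65.0 TPM and 20.2, 26.9 and 39.8 TPM. Il27, a subunit of the cytokine IL-27, was listed at 0 in every tumor. Its partner Ebi3 lay at 0, 2.66 and 0 TPM and the receptor chain Il27ra at 0.49, 0.34 and 0.78 TPM. Il12a and Il12b lay at 2.26, 2.73 and 0 TPM and 0, 2.72 and 0.56 TPM, and Il23a at 0, 1.51 and 0 TPM.

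Glycolysis genes were detected in 18 of 19 cases, with a median of 108 TPM and sums of 3304, 3701 and 3037 TPM. The aldolase Aldoa lay at 572, 716 and 425 TPM, the lactate dehydrogenase Ldha at 476, 694 and 451 TPM and the enolase Eno1 at 378, 654 and 586 TPM. The pyruvate kinase Pkm lay at 386, 305 and 309 TPM and the isomerase Gpi1 at 239, 257 and 210.0 TPM. Aldoa and Ldha were highest in tumor 2. Genes of the hypoxia response were detected in 15 of 15 cases, with a median of 25.1 TPM and sums of 606, 444 and 475 TPM. Hif1a, the oxygen-regulated factor, lay at 83.7, 68.6 and 113 TPM and Ndrg1, a stress gene, at 97.4, 52.6 and 86.1 TPM. The glucose transporter Slc2a1 lay at 98.7, 79.9 and 39.9 TPM, the vessel growth factor Vegfa at 87.7, 46.2 and 42.9 TPM and the oxidase Ero1l at 40.7, 36.7 and 38.5 TPM. Slc2a1 and Vegfa were highest in tumor 1.

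Tricarboxylic acid cycle genes were detected in 24 of 24 cases, with a median of 58.1 TPM and sums of 1766, 1736 and 1659.7 TPM. Sdha, the catalytic subunit of succinate dehydrogenase, lay at 206, 198 and 189 TPM. Pdha1 of pyruvate dehydrogenase lay at 121, 181 and 163 TPM, and the malate dehydrogenases Mdh2 and Mdh1 at 164, 122 and 109.9 TPM and 120.3, 77.6 and 77.2 TPM. Pdk4, a kinase that turns pyruvate dehydrogenase off, lay at 2.63, 1.71 and 5.90 TPM. Nuclear genes of the respiratory chain and the ATP synthase were detected in 81 of 86 cases, with a median of 58.9 TPM and sums of 7870.0, 7004 and 6402 TPM. Atp5b and Atp5a1, the catalytic and the regulatory subunit of the synthase, lay at 756, 783 and 762 TPM and 310.1, 287 and 299 TPM, and the cytochrome oxidase subunits Cox6c and Cox7b at 637, 294 and 331 TPM and 285, 283 and 218 TPM. Ndufc2 of complex I lay at 264, 181 and 223 TPM. Among the listed genes, 0 were encoded by the mitochondrial genome.

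Lipid synthesis was led by desaturation. Fatty acid and triglyceride genes were detected in 26 of 27 cases, with a median of 64.1 TPM and sums of 3317, 3179.9 and 3823 TPM. Scd1, the main desaturase, gave 32.4% of the sum at 1114, 742 and 1491 TPM, and Scd2 lay at 305, 257 and 249 TPM. Srebf1, the factor that turns on lipogenic genes, lay at 516, 509 and 471 TPM. Thrsp, a lipogenic protein of mammary gland and fat, lay at 108, 269 and 169.8 TPM, and Acly, which makes cytosolic acetyl-CoA, at 169, 192 and 186 TPM. Cholesterol synthesis genes were detected in 22 of 23 cases, with a median of 34.6 TPM and sums of 833, 841 and 1012 TPM. The sterol enzymes Ebp, Sc5d, Msmo1 and Cyp51 lay at 111, 148 and 159 TPM, 73.4, 86.0 and 82.8 TPM, 83.7, 41.8 and 102 TPM and 83.3, 62.3 and 76.4 TPM.

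Pentose phosphate and serine synthesis genes were detected in 17 of 17 cases, with a median of 21.4 TPM and sums of 586, 575 and 566 TPM, a 1.04-fold range. Taldo1 and Tkt, which link pentoses to glycolysis, lay at 172, 186 and 157 TPM and 74.8, 78.4 and 70.5 TPM. Pgd of the oxidative branch lay at 50.3, 55.0 and 69.4 TPM, the hydroxymethyltransferase Shmt1 at 65.7, 44.1 and 35.6 TPM and the epimerase Rpe at 26.3, 43.8 and 34.8 TPM. Genes of glutamine and amino acid supply were detected in 17 of 18 cases, with a median of 39.1 TPM and sums of 952, 900.5 and 1224 TPM. Glul, which makes glutamine, lay at 138, 96.1 and 276 TPM. The transporters Slc3a2 and Slc38a2 lay at 159, 142 and 146 TPM and 106, 106 and 117 TPM, and Glud1, a glutamate dehydrogenase, at 91.2, 76.1 and 103 TPM. Antioxidant genes were detected in 22 of 23 cases, with a median of 39.8 TPM and sums of 1778, 1550.2 and 1623 TPM. The peroxiredoxin Prdx1 lay at 473, 462 and 499.8 TPM and the glutathione peroxidases Gpx1 and Gpx4 at 176, 127 and 141 TPM and 168, 84.9 and 111 TPM. The dismutase Sod1 lay at 114, 107 and 91.3 TPM.

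Ribosomal proteins had the largest sum of all lists. Cytosolic ribosomal protein genes were detected in 83 of 87 cases, with a median of 279 TPM and sums of 45075, 39228 and 30246 TPM, or 5.78% of all. Translation factors were detected in 19 of 19 cases, with a median of 305 TPM and sums of 10946, 11381 and 10291 TPM. Beside Eef1a1, the initiation factor Eif4g2 lay at 633, 1251 and 1121 TPM, the elongation factors Eef1b2 and Eef1g at 1249, 805 and 755 TPM and 773, 925 and 809 TPM, and Tpt1, a growth-related protein, at 863, 655 and 524 TPM. Ribosomal protein sums were highest in tumor 1 and lowest in tumor 3, with median deviations of detected genes from the mean of the tumors of 0.32, 0.01 and -0.29 on the log2 scale. Genes of any kind with an exon length under 1000 bases gave 0.33, -0.06 and -0.19, and the part of length in the ribosomal order was not tested. Some abundant genes of any list are host to small nucleolar RNAs: an annotated snoRNA lies within an exon of 9 of the 100 most abundant genes, against 0.209% of all listed genes, a count made after the values were seen. The part of these RNAs in the values of Rpl13a and other host genes was not tested.

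Folding genes of the endoplasmic reticulum were detected in 26 of 26 cases, with a median of 181 TPM and sums of 14846, 16065 and 17790.1 TPM. Tumor 1 had the lowest level of Hspa5 and Hsp90b1 given above, and tumor 2 the lowest level of Calr. Heat shock genes were detected in 15 of 15 cases, with a median of 87.7 TPM and sums of 7558, 7998 and 8373 TPM, led by Hspa8 and Hsp90ab1. Hsp90aa1, the stress-inducible HSP90, lay at 531, 1166 and 1272 TPM, and Hspa4 and Hspa9, relatives of HSP70, at 273, 305 and 251 TPM and 230.2, 255 and 301 TPM. Proteasome genes were detected in 37 of 39 cases, with a median of 67.3 TPM and sums of 2527, 3041 and 2803 TPM. Psmd2 and Psmd13 of the regulatory particle lay at 163, 247 and 203 TPM and 132, 190.0 and 137 TPM, and Psma4, Psma6 and Psma7 of the core at 182, 214 and 179.5 TPM, 99.8, 166 and 175 TPM and 177, 115 and 139 TPM. Lysosome genes were detected in 23 of 23 cases, with a median of 115 TPM and sums of 4411, 3847 and 4249 TPM. The saposin precursor Psap lay at 611, 494 and 543 TPM, the proteases Ctss and Ctsh at 496, 446 and 436 TPM and 360.2, 334 and 380.0 TPM, and the membrane protein Lamp2 at 362, 354 and 454 TPM.

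Cytoskeletal and proliferative genes were expressed in every tumor. Actin cytoskeleton genes were detected in 20 of 20 cases, with a median of 156 TPM and sums of 9165, 8245 and 8709 TPM. The cross-linker Actn4 lay at 961, 638 and 702 TPM, the tropomyosin Tpm3 at 475, 484 and 507 TPM and the actin-binding thymosin Tmsb4x at 414, 373 and 531 TPM. Proliferation genes were detected in 26 of 26 cases, with a median of 27.4 TPM and sums of 954, 1117 and 1135 TPM. Pcna, the sliding clamp of replication, lay at 108, 111 and 159 TPM and Mcm7 of the replicative helicase at 87.9, 116 and 171 TPM. Top2a, which untangles chromosomes, lay at 112, 128 and 131 TPM, the proliferation antigen Mki67 at 57.0, 152 and 98.1 TPM and the cyclin Ccnd1 at 67.0, 86.1 and 72.7 TPM. Mki67 was lowest and Mcm2, a gene named after its values were seen, highest in tumor 1, where Mcm2 lay at 91.1, 25.2 and 26.8 TPM. Replication-dependent histones were detected in 42 of 68 cases, with a median of 19.8 TPM and sums of 4058, 2864 and 2010.5 TPM. Hist2h2aa2 and Hist2h2aa1 led them at 617, 298 and 333 TPM and 395, 197 and 121 TPM, followed by Hist2h2bb at 246, 197 and 146 TPM, Hist1h2bc at 140.4, 168 and 128 TPM and Hist1h2ap at 209, 145 and 73.8 TPM. Reads of these near-identical genes are hard to assign to 1 copy.

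Immediate early genes, which respond within minutes to growth factors or to handling of tissue, were detected in 20 of 22 cases, with a median of 20.9 TPM and sums of 661, 687 and 722 TPM. Fos lay at 73.9, 159.6 and 145 TPM, Jun at 73.5, 56.8 and 63.0 TPM and Jund at 63.7, 56.2 and 54.5 TPM, all subunits of AP-1. The zinc finger factor Klf6 lay at 45.1, 52.5 and 68.2 TPM and Btg2, a gene that slows the cell cycle, at 38.8, 49.9 and 65.2 TPM. Fos was about as high in tumors 2 and 3 and lower in tumor 1.

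Partners of middle T were expressed throughout. Their list had 20 of 20 genes detected, a median of 55.3 TPM and sums of 1698, 1814 and 1937 TPM. Pik3r1, the regulatory subunit of phosphoinositide 3-kinase, was the most abundant at 497, 598 and 622 TPM. The 14-3-3 protein Ywhaz, which binds middle T, lay at 253, 245 and 253 TPM and the adaptor Grb2 at 95.1, 126 and 112 TPM. The kinase Akt1 lay at 159, 87.3 and 47.9 TPM and Ppp2ca, the catalytic subunit of protein phosphatase 2A, at 82.0, 95.7 and 114 TPM. The membrane kinases Src, Yes1 and Fyn, named after their values were seen, lay at 33.7, 33.3 and 36.2 TPM, 35.7, 56.2 and 67.0 TPM and 32.8, 26.4 and 21.7 TPM, and the adaptor Shc1 at 38.6, 34.5 and 33.3 TPM. Src-family kinases were thus a modest part of the list, below Pik3r1 in every tumor.

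Growth factor receptors and ligands were detected in 22 of 25 cases, with a median of 30.8 TPM and sums of 1146, 1271 and 1798 TPM. The fibroblast growth factor receptor Fgfr1 lay at 291, 286 and 337 TPM and Prlr, the prolactin receptor, at 124, 173 and 312 TPM. The insulin receptor Insr lay at 85.9, 114 and 187 TPM, the hepatocyte growth factor receptor Met at 123, 107 and 120.2 TPM and the collagen receptor Ddr1 at 135, 91.1 and 110.2 TPM. The ratio of Erbb3 to Erbb2, chosen after the values were seen, was 1.95, 1.88 and 2.06, and Erbb2 lay at 29.9, 28.2 and 38.1 TPM. Prlr, Insr, Fgfr1 and Erbb2 were highest in tumor 3, but with size factors Fgfr1 was highest in tumor 1 (329.6, 271 and 306 TPM).

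Transcription factors of the mammary gland were detected in 32 of 34 cases, with a median of 40.3 TPM and sums of 2969.8, 4024 and 3744 TPM. Beside Xbp1 at 779.6, 1019 and 860.0 TPM and Ehf, they were led by Nfib at 301, 605 and 532 TPM, the factor Cebpb of alveolar development at 193, 139.9 and 138 TPM and Runx1 at 119, 149 and 176 TPM. The hormone receptors Esr1 and Pgr for estrogen and progesterone, named after their values were seen, lay at 13.5, 17.6 and 27.8 TPM and 19.6, 21.9 and 51.0 TPM. WNT pathway and stem cell genes were detected in 24 of 26 cases, with a median of 18.0 TPM and sums of 2089.8, 2199 and 2448 TPM. The integrins Itgb1 and Itga6 lay at 437, 521 and 638 TPM and 442, 484 and 516 TPM, beta-catenin (Ctnnb1) at 384, 378 and 395 TPM, the coreceptor Lrp6 at 184, 202 and 205 TPM and the hyaluronan receptor Cd44 at 176, 117 and 157 TPM. Hox genes were detected in 1 of 39 cases, with a median of 0.280 TPM and sums of 8.25, 37.4 and 27.0 TPM, and 15 were at 0 in every tumor. The most abundant was Hoxb3 at 0.82, 4.21 and 5.25 TPM. The signature of the study, Dio2, Gsn, Mmp3 and Pdk4, was detected in 4 of 4 cases, with a median of 25.6 TPM and sums of 100, 105 and 202 TPM. The actin-severing Gsn lay at 55.5, 71.6 and 116 TPM, and Dio2, which activates thyroid hormone, at 1.78, 3.90 and 3.68 TPM.

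Levels of genes were correlated between the tumors. Over all 21960 genes, the Pearson correlation of log2(TPM + 1) was 0.957 between tumors 1 and 2, 0.956 between tumors 1 and 3 and 0.970 between tumors 2 and 3, over genes that vary together and are no replicates of each other. These genes include 5875 at 0 in every tumor. Over genes with a mean of at least 1 TPM, the mean correlation of the 3 pairs was 0.908. A more than 2-fold difference was found for 15.9% and 16.4% of 9137 genes with a mean of at least 10 TPM between tumor 1 and the others, and for 5.43% between tumors 2 and 3. The median SD of log2(TPM + 1) was 0.40 over 13791 genes with a mean of at least 1 TPM. Over 2 tumors, settings chosen after seeing the data, it was 0.24 without tumor 1, 0.37 without tumor 2 and 0.37 without tumor 3. An SD over 2 tumors tends to be lower than one over 3, so these values compare only with each other. With all 3 tumors the median SD fell with level, from 0.55 at 1 to 10 TPM to 0.35 at 10 to 100 TPM, 0.32 at 100 to 1000 TPM and 0.31 above.

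Among 1333 genes with a mean of at least 100 TPM, the lowest SD was that of Gle1, which serves the export of mRNA, at 123, 124 and 126 TPM. Atp5c1 of the ATP synthase lay at 132, 134 and 135 TPM and Atp5b as above. Tapbp, which bridges MHC class I to the peptide transporter, lay at 207, 212 and 211 TPM, and Sec11c, a signal peptidase subunit, at 197, 197 and 192 TPM. Tbca, a tubulin-folding cofactor, lay at 169, 168 and 174 TPM and Vars, the valyl-tRNA synthetase, at 159, 155 and 153 TPM. Cd24a and Ywhaz also belong to the 10 most even genes, whose highest tumor exceeded the lowest by at most 1.04-fold, the value for Vars. With size factors the same 10 genes ranged over 1.21 to 1.30-fold, so their evenness holds for unscaled TPM only.

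The 10 largest SDs among genes with a mean of at least 10 TPM all belonged to genes at 0 in some tumor, 5 of them histones. Of all 9137 genes at that level, 35 were at 0 in some tumor and 45 were replication-dependent histones. Hist1h2an lay at 87.3, 0 and 0 TPM, Hist1h2ag at 0, 36.0 and 121 TPM, Hist1h2bl at 59.0, 0 and 0 TPM, Hist1h4m at 52.0, 0 and 0 TPM and Hist1h2ac at 45.1, 50.1 and 0 TPM. The predicted genes Gm14440, Gm10020, Gm20537 and Gm3625 lay at 0, 53.5 and 62.7 TPM, 0, 57.4 and 51.9 TPM, 0, 48.0 and 43.9 TPM and 44.2, 0 and 0 TPM, and Rps12 was given above. Such genes have close copies, and how reads were shared among them was not tested. Of genes above 0 in every tumor, a selection made after these values were seen, Myh4 had the largest SD. Tnni2, Tnnc2, Tnnt3, Hba-a2, Dmbt1 and Csn2 were among the 20 largest of that selection.

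Tumor 1 stood apart more often than the others. A gene was taken to stand apart when 1 tumor lay at least 2-fold from both others, on TPM + 1, and these lay within 2-fold of each other. This held for 1078 of 9137 genes (11.8%), of which 778 stood apart in tumor 1, 145 in tumor 2 and 155 in tumor 3. In tumor 1, 677 were lower and 101 higher, while the median deviation from the mean of the 3 tumors over all 9137 genes was -0.18, 0.08 and 0.13. After scaling by size factors, 567 of 9100 genes stood apart in tumor 1, 146 in tumor 2 and 146 in tumor 3. The most abundant of the 778 were Scgb2b27, a secretoglobin with close copies, at 497, 1139 and 1548 TPM, and Hsp90aa1 as above. With size factors, tumor 1 lay less than 2-fold below tumor 2 in both genes, so they no longer stood apart. Rbm39, an RNA-binding protein of splicing, lay at 459, 1215 and 1196 TPM, Thoc2, which serves mRNA export, at 221, 934 and 853 TPM and Atrx, a chromatin remodeler, at 194, 723 and 739 TPM. All 5 were lower in tumor 1. A list of nuclear RNA-binding genes named Hnrnp, Srsf, Srrm, Sf3, Rbm, U2af, Prpf, Ddx or Luc7l was added after these values were seen. It had 126 of 139 genes detected, a median of 48.6 TPM and sums of 13733, 21346 and 20738 TPM, and 12 of its 118 members with a mean of at least 10 TPM were lower in tumor 1 and 0 higher, against 7.41% and 1.11% of all genes.

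Gene length moved with this difference. The genes lower in tumor 1 had a median annotated exon length of 6352 bases and those higher in it 2085, against 4886 for all 9137 genes. The median deviation of tumor 1 from the mean of the 3 tumors on the log2 scale was 0.33 for genes with an exon length under 1000 bases and -0.34 for those of 8000 or more. In tumors 2 and 3 the same medians ran from -0.06 to 0.14 and from -0.19 to 0.21. Each gene is centered on its mean over the 3 tumors, so a fall in 1 tumor is met on balance by a rise in the others. Among genes with an exon length of 1000 to 4000 bases, 197 of 3258 (6.05%) stood apart in tumor 1, 70 (2.15%) in tumor 2 and 68 (2.09%) in tumor 3, against 8.51%, 1.59% and 1.70% of all 9137 genes. The length tables were made after the values were seen, and the part of exon length in the genes that stood apart in tumor 1 was not tested.

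**Figure D5:**
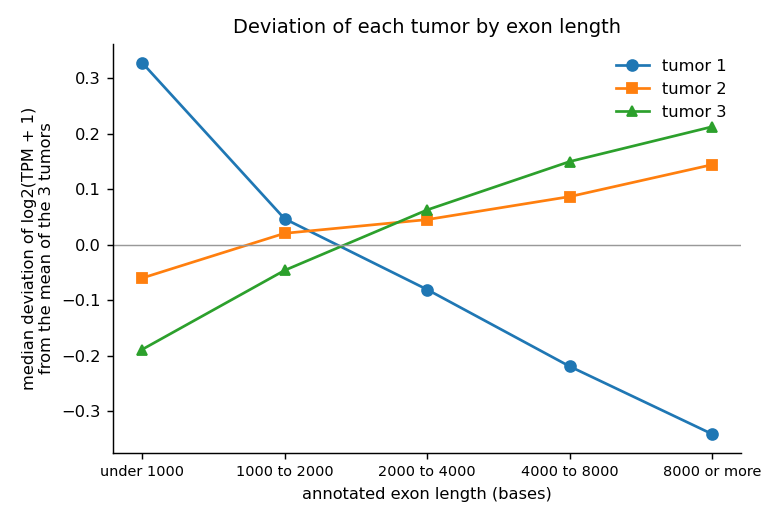
Median deviation of each tumor from the mean of the 3 tumors, in log2(TPM + 1) (vertical axis), for genes grouped by annotated exon length in bases (horizontal axis). Each line is 1 tumor, over 9137 genes with a mean of at least 10 TPM. Tumor 1 runs from 0.33 in the shortest group to -0.34 in the longest, and the other tumors run the other way. Each gene is centered on its mean over the 3 tumors, so the lines are not independent of each other.

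Tumor 2 stood apart mainly through lower genes, 102 against 43 higher. The most abundant were B2m and Acta2, given above, and the predicted gene Gm21887 at 1075, 518 and 1235 TPM. With size factors B2m (2209, 640 and 1250 TPM) lay less than 2-fold below tumor 3 and no longer stood apart. Erdr1, which lies in the region that the X and Y chromosomes share, lay at 515, 97.5 and 329 TPM, and the matrix protein Thbs1 at 507, 121 and 256 TPM. With size factors, tumors 1 and 3 lay more than 2-fold from each other in Thbs1, so Thbs1 no longer stood apart either. Basal genes were among the lower ones, with 3 of 10 basal and myoepithelial members of a mean of at least 10 TPM, against 1.12% of all genes. In tumor 3, 86 genes were higher and 69 lower. The most abundant were Irf7, given above, the predicted gene Gm10073 at 427, 434 and 209 TPM, the histones Hist1h1e and Hist2h2ac at 175, 171 and 80.9 TPM and 169.6, 111 and 41.5 TPM and the tyrosine phosphatase Ptpn1 at 110.2, 97.2 and 37.4 TPM, all 5 lower. Of histones with a mean of at least 10 TPM, 10 of 45 were lower in tumor 3 and 7 higher in tumor 1, against 0.755% and 1.11% of all genes. An exon length under 1000 bases was found in 21.7% of all genes lower in tumor 3 and 27.7% of those higher in tumor 1, against 2.44% of all 9137 genes, and the part of length in the histones was not tested. The higher genes of tumor 3 included 3 of 11 skeletal muscle members, against 0.941% of all genes.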

How the data were processed

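Whole-tumor RNA of the 3 IgG1 tumors was analysed, and the other groups were not used here. The authors trimmed reads with skewer, aligned them with STAR to mm10 and counted genes with RSEM inside SeqBox (versions are not stated). The deposited unit, classed here as other because values are written with decimal commas, is log2(TPM + 1). TPM was computed as 2 to the power of the value, minus 1, and 100% of the results were multiples of 0.01 within a tolerance of 0.01 on TPM x 100. Values alone cannot tell TPM from FPKM, and TPM follows the methods of the paper. Depth is unknown, so precision rests on the SD of 3 tumors.

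Genes were ranked by mean TPM with Python 3.11.15, numpy 2.4.6 and pandas 2.3.3, and figures were drawn with matplotlib 3.10.9. Identifiers of 21860 genes matched GENCODE vM21, which gave exon lengths, snoRNAs and chromosomes. For the 19 symbols listed on 2 lines, the more abundant line was used for named genes. A gene was detected at 1 TPM in every tumor. Spread was the SD of log2(TPM + 1), with a pseudocount of 1, for a mean of at least 1 TPM. Promoters were from RefSeq (GRCm38.p6). Steps were tested on simulated data. No statistical test was made.

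The 59 lists cover cell types, processes and signaling, and symbols not among the listed genes were left out of their counts. A list added after values were seen is named as such. The members and lists were chosen with earlier results of these data known. Named genes are the 30 most abundant, up to 5 most abundant members of each list, defining markers and members of lists of at most 20 genes where a low level is the point, the 10 largest and 10 smallest SDs, the 5 most abundant genes that stand apart in each tumor, and genes the study names. Some genes that this rule names are not reported here. Alternatives were other pseudocounts, filters, rankings, folds and scalings (a sum of 1000000, median-of-ratios size factors), lists without members, and leaving out each tumor.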

Additional observations from a re-analysis of the deposited data

How the results depend on the processing

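With 3 tumors of 1 group no contrast exists, so the results are levels and no test was made. No paired analysis was possible because the labels join no tumor to another. A value was taken to have moved when it changed by more than the SD of the 3 tumors, and a count when it changed by more than 1.5 times. The number of detected genes stayed within 1.5 times of 12400 at every level tried, and the shares of the 10 and 100 most abundant genes did not move under any ranking. Scaling to a sum of 1000000 can change such shares only through the ranking, so it carries no verdict on them. Without ribosomal protein and histone genes, the 1000 most abundant genes held 49.1%. With members below 1 TPM kept, the luminal median exceeded the leukocyte median by 3.03. The median SD of log2(TPM + 1) was 0.43 with a pseudocount of 0.1, 0.35 for a mean of at least 10 TPM, 0.29 with no filter, 0.37 with size factors, 0.39 with TPM scaled to 1000000, 0.38 without genes listed at 0 and 0.24 to 0.37 when a tumor was left out. The lowest came without tumor 1, and with a tumor left out the SDs are over 2 tumors. Genes that stood apart in any tumor and in tumors 1, 2 and 3 numbered 215, 151, 27 and 37 of 9137 at 3-fold, 2516, 1425, 550 and 541 of 13791 at a mean of at least 1 TPM, and 335, 197, 70 and 68 of 3258 at an exon length of 1000 to 4000 bases. For any tumor these are 2.35%, 18.2% and 10.3%, against 11.8% at first. The mean correlation of the 3 pairs was 0.951 by Spearman, 0.908 over genes with a mean of at least 1 TPM and 0.945 with a pseudocount of 0.1. The cause of these shifts was not tested. The settings with an exon length limit, without genes listed at 0, without snoRNA hosts, without members of another list, and with a tumor left out for the median SD were chosen after seeing the data. Of 59 list sums, which include the added list and leave out X inactivation, without listed members, none moved with size factors. Size factors raise the values of tumor 1 and lower those of tumors 2 and 3, which largely cancels in a mean. The mean sums could thus hardly move, and size factors are a weak check on them. Whether the order of the tumors in each list sum holds with size factors was not tested. A mean of 3 tumors cannot move by more than their SD when 1 is left out, so for sums and shares leaving out a tumor carries no verdict. The largest changes as a ratio were in skeletal muscle, from 338 to 133 TPM without tumor 3, and in erythrocyte genes, from 163 to 102 TPM without tumor 1. In these sentences a list's value is the mean of its summed TPM in the 3 tumors.

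Scaling to 1000000 raises each value by construction, and it moved 55 sums to the following means in TPM: luminal epithelial 10170.4, basal and myoepithelial 967, milk proteins and lactation 11457, secreted defense and acute phase 26701, salivary-type secretory 19.4, fibroblast and matrix 6176, collagens 4676, pericyte and smooth muscle 668, endothelial 337, lymphatic endothelial 133, adipocyte 605, Schwann and nerve 173, skin keratinocyte 27.1, pan-leukocyte 495, macrophage and monocyte 2890.0, dendritic cell 73.7, MHC class II 1381, MHC class I and presentation 12952, neutrophil 6401, mast cell 831, T cell 49.6, NK and cytotoxic 32.8, B cell and plasma cell 1419.5, immune checkpoints 576, chemokines 676, IL-12 family 1009, interferon-stimulated 1481, complement 1135, glycolysis 5025, tricarboxylic acid cycle 2586, respiratory chain 10702, fatty acid and triglyceride synthesis 5149.9, cholesterol synthesis 1338, pentose phosphate and serine synthesis 865, glutamine and amino acid supply 1532, hypoxia response 769.9, antioxidant 2485, iron and metal handling 14382, cytosolic ribosomal proteins 57843, translation factors 16329, replication-dependent histones 4549.7, proliferation 1596, proteasome 4171, ER folding and secretion 24256, heat shock 11939, immediate early 1033, actin cytoskeleton 13096, lysosome and vacuolar ATPase 6272, middle T signaling partners 2717, growth factor receptors and ligands 2087, mammary transcription factors 5331, WNT and stem genes 3357, matrix proteases 1285, genes of the study signature 200.1, splicing factors (list added after seeing the values) 27586. Without its most abundant member, the mean sum of 43 lists moved, in TPM, to: luminal epithelial 5867, milk proteins and lactation 1184, secreted defense and acute phase 13417, salivary-type secretory 4.40, collagens 2552, pericyte and smooth muscle 286, lymphatic endothelial 18.2, Schwann and nerve 54.1, skin keratinocyte 2.01, pan-leukocyte 216, macrophage and monocyte 963, dendritic cell 28.1, MHC class II 617, MHC class I and presentation 5458, neutrophil 1370.2, mast cell 5.02, B cell and plasma cell 63.4, immune checkpoints 307, IL-12 family 394, interferon-stimulated 831, complement 610.4, glycolysis 2776, tricarboxylic acid cycle 1523, respiratory chain 6325, fatty acid and triglyceride synthesis 2324, cholesterol synthesis 756, pentose phosphate and serine synthesis 404, hypoxia response 420.2, antioxidant 1172, iron and metal handling 5264, translation factors 7105, proliferation 943, ER folding and secretion 13111, heat shock 4220.1, immediate early 564, actin cytoskeleton 6326, lysosome and vacuolar ATPase 3619.8, middle T signaling partners 1244, mammary transcription factors 2693, WNT and stem genes 1714, matrix proteases 553, genes of the study signature 54.3, Y-linked 0. Without members that another list holds, 23 moved, in TPM, to: luminal epithelial 5000.1, basal and myoepithelial 405, secreted defense and acute phase 4956, fibroblast and matrix 2858, collagens 1829, pericyte and smooth muscle 277, Schwann and nerve 54.1, macrophage and monocyte 1256, MHC class I and presentation 4001, neutrophil 6.43, mast cell 5.02, B cell and plasma cell 63.4, IL-12 family 555, interferon-stimulated 856, complement 533, tricarboxylic acid cycle 1349, pentose phosphate and serine synthesis 554, hypoxia response 407, iron and metal handling 973, ER folding and secretion 10836, lysosome and vacuolar ATPase 3785, mammary transcription factors 1635, genes of the study signature 3.12.

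Of 346 named genes, the rank by mean TPM moved by more than the SD of the ranks in 12 without tumor 1, in 3 without tumor 2 and in 3 without tumor 3. It moved in 9 when ranked by the median and in 2 when ranked by the mean of log2(TPM + 1).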

Other observations

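The genes described here were chosen after their values were seen. Beyond the 30 most abundant genes, 8 more had a mean of at least 1000 TPM, among them Itm2b, a membrane protein of the BRICHOS family, at 1412, 801 and 993 TPM. Calm2, which codes for the calcium sensor calmodulin, lay at 982, 1172 and 940.4 TPM and Npm1, the nucleolar protein nucleophosmin, at 699.9, 1259.9 and 1053 TPM. Coro2a, a coronin that binds actin, lay at 827, 1070.0 and 1106 TPM. Among the next genes were several of epithelial surfaces. Ano1, a calcium-activated chloride channel, lay at 733, 856 and 771 TPM. Plet1, a surface protein of epithelial progenitors, lay at 704, 776 and 846 TPM and Slc12a2, a transporter of sodium, potassium and chloride, at 458, 569 and 917 TPM. Clca3a2, a regulator of chloride channels, lay at 486, 671 and 613 TPM. Trps1, a GATA-type repressor of mammary epithelium, lay at 623, 1021 and 1013 TPM. Each of these genes was thus more abundant than Krt8 in at least 2 of the 3 tumors.

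Pairs of genes were also compared as ratios of TPM within a tumor. Igfbp5 exceeded Igfbp2, which also binds insulin-like growth factors, by 32.9, 110 and 72.6-fold, and Igfbp2 itself lay at 174, 37.5 and 59.4 TPM. The desaturases Scd1 and Scd2 stood at a ratio of 3.66, 2.88 and 5.99. The basement membrane collagen Col4a2 lay below its partner Col4a1 in every tumor, at a ratio of 0.409, 0.496 and 0.380. Krt18 and Krt8, which pair in filaments, stood at a ratio of 1.2, 2.0 and 1.7. Krt18 exceeded the basal keratin Krt14 by 10.9, 25.2 and 18.6-fold. Epcam of epithelium exceeded Ptprc of leukocytes by 10.7, 8.42 and 6.15-fold. Lcn2 exceeded Csf3r, a defining marker of neutrophils, by 3689, 1835 and 1146-fold. Csf3r was near 0, so that this ratio is imprecise.

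The levels rest on 3 libraries of 1 group, with no contrast, so that nothing is known here of how treatment changes them. Depth is unknown and low values carry counting error that cannot be given. Genes with near-identical copies (histones, globins, actins, H2 and Scgb genes, predicted genes) have uncertain values, since how reads were shared among copies was not tested. Lists overlap and their names do not fix the cell of origin, as for Lcn2, Xbp1 and Kit. The listed TPM sum to less than 1000000 in each tumor, and the genes that make up the rest were not analysed here.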
